A study of Rattus with 4 samples.

Results

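Peaks of RNA recovered with RBM25 in 10 genes of the hnRNP family were examined in H9C2 cells, a rat line derived from embryonic heart. The genes were Hnrnpa1, Hnrnpa2b1, Hnrnpa3, Hnrnpc, Hnrnpd, Hnrnph1, Hnrnpk, Hnrnpl, Hnrnpm and Hnrnpu, and their peaks were taken by the gene name that the deposited peak lists give. They made up 127 of the 10804 deposited peaks, 23 of 2696 in the first replicate and 104 of 8108 in the second. The genes were 10 of the 1914 with a peak in either list.

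The series holds 2 RBM25 immunoprecipitates (IP) and 2 inputs of ultraviolet-cross-linked cells. Each IP has a peak list, called IP 1 and IP 2 after its replicate number, and the inputs were not used here. The labels name no genotype or drug for these 4 samples and do not say whether the replicates came from separate cultures. They do not describe the antibody either. A peak is a run of 50-nt bins on 1 strand, and its tags are the authors' value for the bin, which by the values is whole in 51-nt peaks and a mean over bins in longer ones. The depth of the libraries is unknown, and no value is given for a place without a peak; the lowest peak had 19 tags in IP 1 and 20 in IP 2. Of 12 genes listed as H9C2 markers, 4 had a peak in either list (Vim, Acta2, Cdh15 and Tnnt2). The other 8, Des, Myod1 and Myog among them, had none. None of 8 markers of other cell types had a peak. Of the protein-coding genes of a rat name table, only 7.61% had a peak in either list. The lack of peaks in 8 genes therefore says nothing about cell type. A peak needs both RNA and recovery with RBM25, so these counts do not measure expression.

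Heterogeneous nuclear ribonucleoproteins (hnRNPs) coat pre-mRNA as it is made and influence which exons are kept, how transcripts are exported and how long they last. Some act against SR proteins at splice sites, and several control the splicing of their own transcripts. RBM25 is a splicing factor that associates with the U1 snRNP, the particle that recognises 5' splice sites.

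All 10 genes had a peak in at least 1 list, and no member lacked one; of the protein-coding genes of a rat name table, 7.61% had a peak in either list. In IP 1 there were peaks in 9 of the 10, beside 3.68% of protein-coding genes, and Hnrnpl was the gene without one. In IP 2 all 10 carried a peak, beside 7.25% of protein-coding genes. Both lists held peaks of 9 genes, beside 43.2% of all genes with a peak in either list. At 7 genes a peak lay on the same strand in the same bin in both lists, called shared below, beside 34.1% of all genes with a peak. The 7 were Hnrnpa1, Hnrnpa2b1, Hnrnpa3, Hnrnph1, Hnrnpk, Hnrnpm and Hnrnpu, and 6 of them had a shared sense peak (23.9% of all genes with a peak), Hnrnpa1 being the exception. Hnrnpc and Hnrnpd had peaks in both lists at different places. A gene with more peaks has more chances of a peak in both lists or of a shared one. The shares over all genes were not matched for peak number, and recurrence per peak is given below. The genes were chosen with such results known, so no test was made of these counts.

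**Figure D1:**
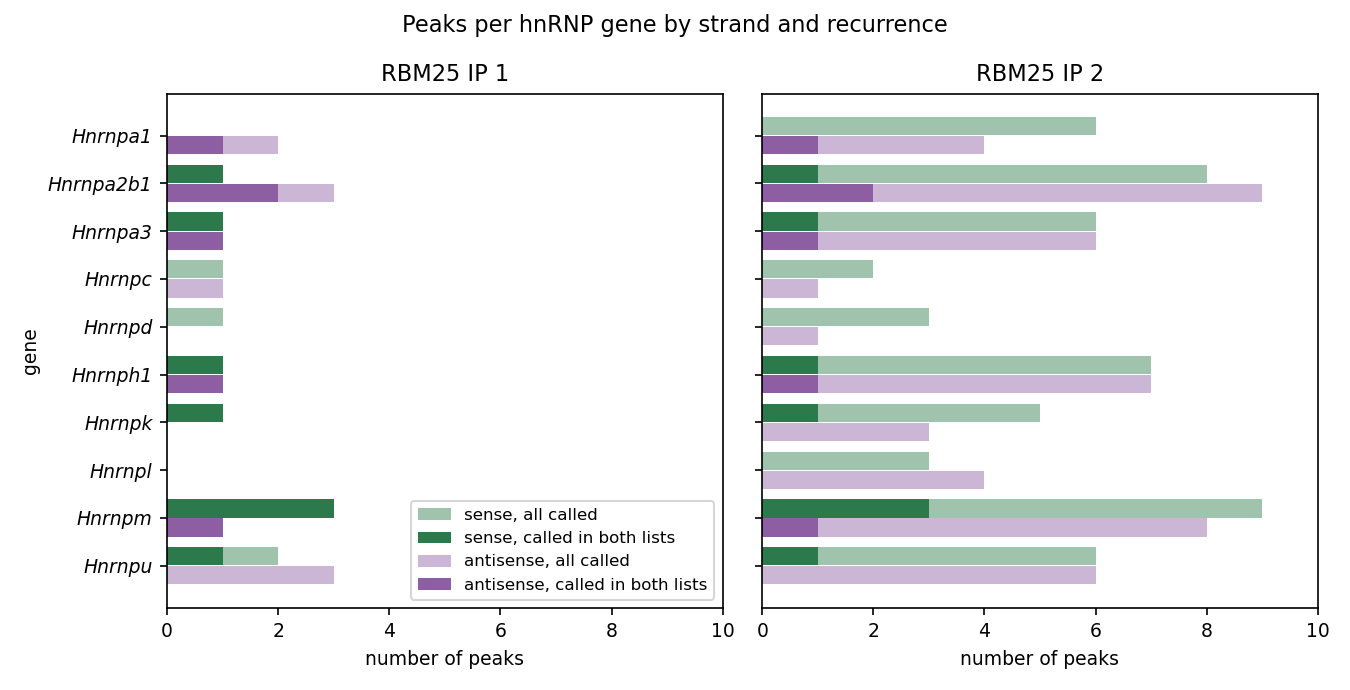
Number of peaks (horizontal axis) in each of the 10 genes, in IP 1 (left) and IP 2 (right); green bars are sense and purple bars antisense peaks, and the dark part of a bar counts those called in both lists. Hnrnpa2b1 and Hnrnpm have 17 peaks each in IP 2, and Hnrnpl has none in IP 1.

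The number of peaks differed widely between the genes. Hnrnpa2b1 and Hnrnpm had 4 peaks each in IP 1 and 17 each in IP 2, a number that 56 of the 1819 genes of IP 2 exceeded. Hnrnph1 had 2 in IP 1 and 14 in IP 2, Hnrnpa3 2 and 12, Hnrnpu 5 and 12, and Hnrnpa1 2 and 10. Hnrnpk followed with 1 and 8, Hnrnpl with 0 and 7, Hnrnpd with 1 and 4, and Hnrnpc with 2 and 3. Over all genes with a peak in the list, the median was 2 peaks in IP 1 and 3 in IP 2. The order of the genes was not the same in both lists, since Hnrnpu led IP 1 and shared the fourth place in IP 2. A longer or more abundant transcript can hold more peaks, and neither length nor abundance was used here. The 10 genes had 0.221 times as many peaks in IP 1 as in IP 2, and all other genes 0.330 times as many.

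The A group includes hnRNP A1, a well-studied repressor of exon inclusion. Hnrnpa1 lies on the plus strand of chromosome 7 (coordinates here and below are those of the files, build mRatBN7.2). Its 2 peaks in IP 1 were both antisense, with 22 tags at 134377050 to 134377100 and 21 tags at 134377600 to 134377650. The second was shared and had 47 tags in IP 2. At the first position IP 2 had a peak on the sense strand alone, of 20 tags. The strongest peaks of Hnrnpa1 in IP 2 faced each other at 134377400 to 134377450, with 70 tags antisense and 68 tags sense, the sense bin being 0.84 coding sequence and 0.16 intron. IP 1 had no peak there. Farther downstream, at 134379200 to 134379250, IP 2 had 64 tags in a sense bin of 0.14 3' UTR and 0.86 intron, with no antisense peak.

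Hnrnpa2b1 encodes hnRNP A2 and B1, which act in splicing and in the transport of RNA, and lies on the minus strand of chromosome 4. In IP 1 its tallest peak was antisense at 80542050 to 80542100, with 134 tags, and 23 peaks of that list had more. IP 2 had no peak in that bin on either strand, and the nearest one began 100 nt away. The 3 other peaks of IP 1 were all shared. At 80541900 to 80541950 the sense peak had 19 tags in IP 1 and 23 in IP 2, and the antisense peak had 23 and 22. The third, antisense at 80542400 to 80542450, had 29 tags in IP 1 and 37 in IP 2. The other 14 peaks of IP 2 were called in that list alone. Its strongest antisense peak had 66 tags at 80542550 to 80542600, and its strongest sense peak 51 tags at 80541700 to 80541750, where it faced an antisense peak of 53.

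Hnrnpa3, on the plus strand of chromosome 3, encodes a close relative of hnRNP A2. Its 2 peaks in IP 1 faced each other at 60581150 to 60581200, a bin of 0.64 coding sequence and 0.36 intron, and both were shared. The sense peak had 21 tags in IP 1 and 42 in IP 2, and the antisense peak had 20 and 49. All 12 peaks of IP 2 were called on both strands, in 6 places, with the highest at 60582000 to 60582050 (55 tags sense and 52 antisense).

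Hnrnpc encodes hnRNP C, which binds runs of uridines, and lies on the minus strand of chromosome 15. IP 1 had 26 tags sense and 20 antisense at 24780750 to 24780800. IP 2 had 38 tags sense and 54 antisense at 24780250 to 24780300, and 89 tags sense alone at 24780400 to 24780450, a bin of 0.56 coding sequence and 0.44 intron. No bin was called in both lists, and the gap between the nearest sense peaks of the lists was 300 nt.

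Hnrnpd, the gene of the AU-rich-element-binding protein AUF1, lies on the plus strand of chromosome 14 and also had no shared peak. Its only peak in IP 1 had 29 tags at 9615750 to 9615800, over 0.26 5' UTR and 0.74 coding sequence. In IP 2 the sense peaks had 63 tags at 9617750 to 9617800, 21 at 9627750 to 9627800 and 29 at 9630050 to 9630100. All 3 bins held coding sequence and intron, and the last had an antisense peak of 23 tags as well.

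Hnrnph1 encodes a protein that binds runs of guanines and regulates splicing. On chromosome 10 at 34698800 to 34698850, in a bin of 0.6 coding sequence and 0.4 intron, the sense peak had 23 tags in IP 1 and 29 in IP 2, and the antisense peak had 29 and 32. These were the only peaks of IP 1, and both were shared. The 14 peaks of IP 2 had a narrow range, from 20 to 34 tags, and the highest was sense at 34695450 to 34695500. The highest antisense peak of IP 2 was the shared one.

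Hnrnpk encodes a KH-domain protein that binds cytosine-rich RNA. Its only peak in IP 1, on the plus strand of chromosome 17 at 6264250 to 6264300, lay wholly in 5' UTR and had 30 tags, with 33 in IP 2. The opposite strand of that bin held a peak of 34 tags in IP 2 that the files assign to an intron of the neighbouring gene Rmi1. It was the only peak of another gene within the stretch covered by the peaks of any of the 10 genes. In the name table, further genes overlap Hnrnpa1 (Cbx5), Hnrnpk (Mir7-1), Hnrnpl (LOC103689966 and LOC134483092) and Hnrnpm (Pram1). Their strand was not examined. The tallest peak of the 10 genes in IP 2 was in Hnrnpk, a sense peak of 119 tags at 6266250 to 6266300, over 0.9 coding sequence and 0.1 intron, and 35 peaks of that list had more tags. No antisense peak faced it, and IP 1 had no peak there. The strongest antisense peak, at 6266950 to 6267000, had 51 tags and faced a sense peak of 41.

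Hnrnpl encodes a protein that binds CA-rich RNA and regulates splicing. Its 7 peaks, all in IP 2 and on chromosome 1, were low, from 20 to 33 tags. The highest sense peak had 33 tags at 84102950 to 84103000 and the highest antisense peak 31 tags at 84103550 to 84103600.

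Hnrnpm encodes a splicing regulator that binds GU-rich RNA, and was the gene with the most shared peaks. All 4 peaks of IP 1 on chromosome 7 recurred. Sense peaks on the minus strand had 19 tags in IP 1 and 35 in IP 2 at 14451600 to 14451650, 20 and 27 at 14452050 to 14452100, and 21 and 29 at 14458850 to 14458900. An antisense peak in the last of these bins had 23 tags in IP 1 and 37 in IP 2. Its tallest peaks in IP 2 did not recur, 94 tags sense at 14461600 to 14461650 and 84 tags antisense at 14459000 to 14459050.

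Hnrnpu encodes scaffold attachment factor A, which binds RNA and chromatin. It had the most peaks of the 10 genes in IP 1, but only 1 of the 5 was shared, a sense peak of 21 tags in IP 1 and 24 in IP 2 on chromosome 13 at 90079750 to 90079800, over 0.96 coding sequence. The strongest peaks of IP 1 were antisense, 78 tags at 90084850 to 90084950 and 58 tags at 90086100 to 90086150. On either strand, the nearest IP 2 peak lay 1450 nt from the first and 250 nt from the second. The remaining pair of IP 1, at 90079300 to 90079350, had 24 tags sense and 31 antisense, with the nearest IP 2 peak 400 nt away. The 12 peaks of IP 2 ranged from 20 to 30 tags, led by a sense peak at 90082350 to 90082400, and the highest antisense peak had 29 tags at 90081950 to 90082000.

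**Figure D2:**
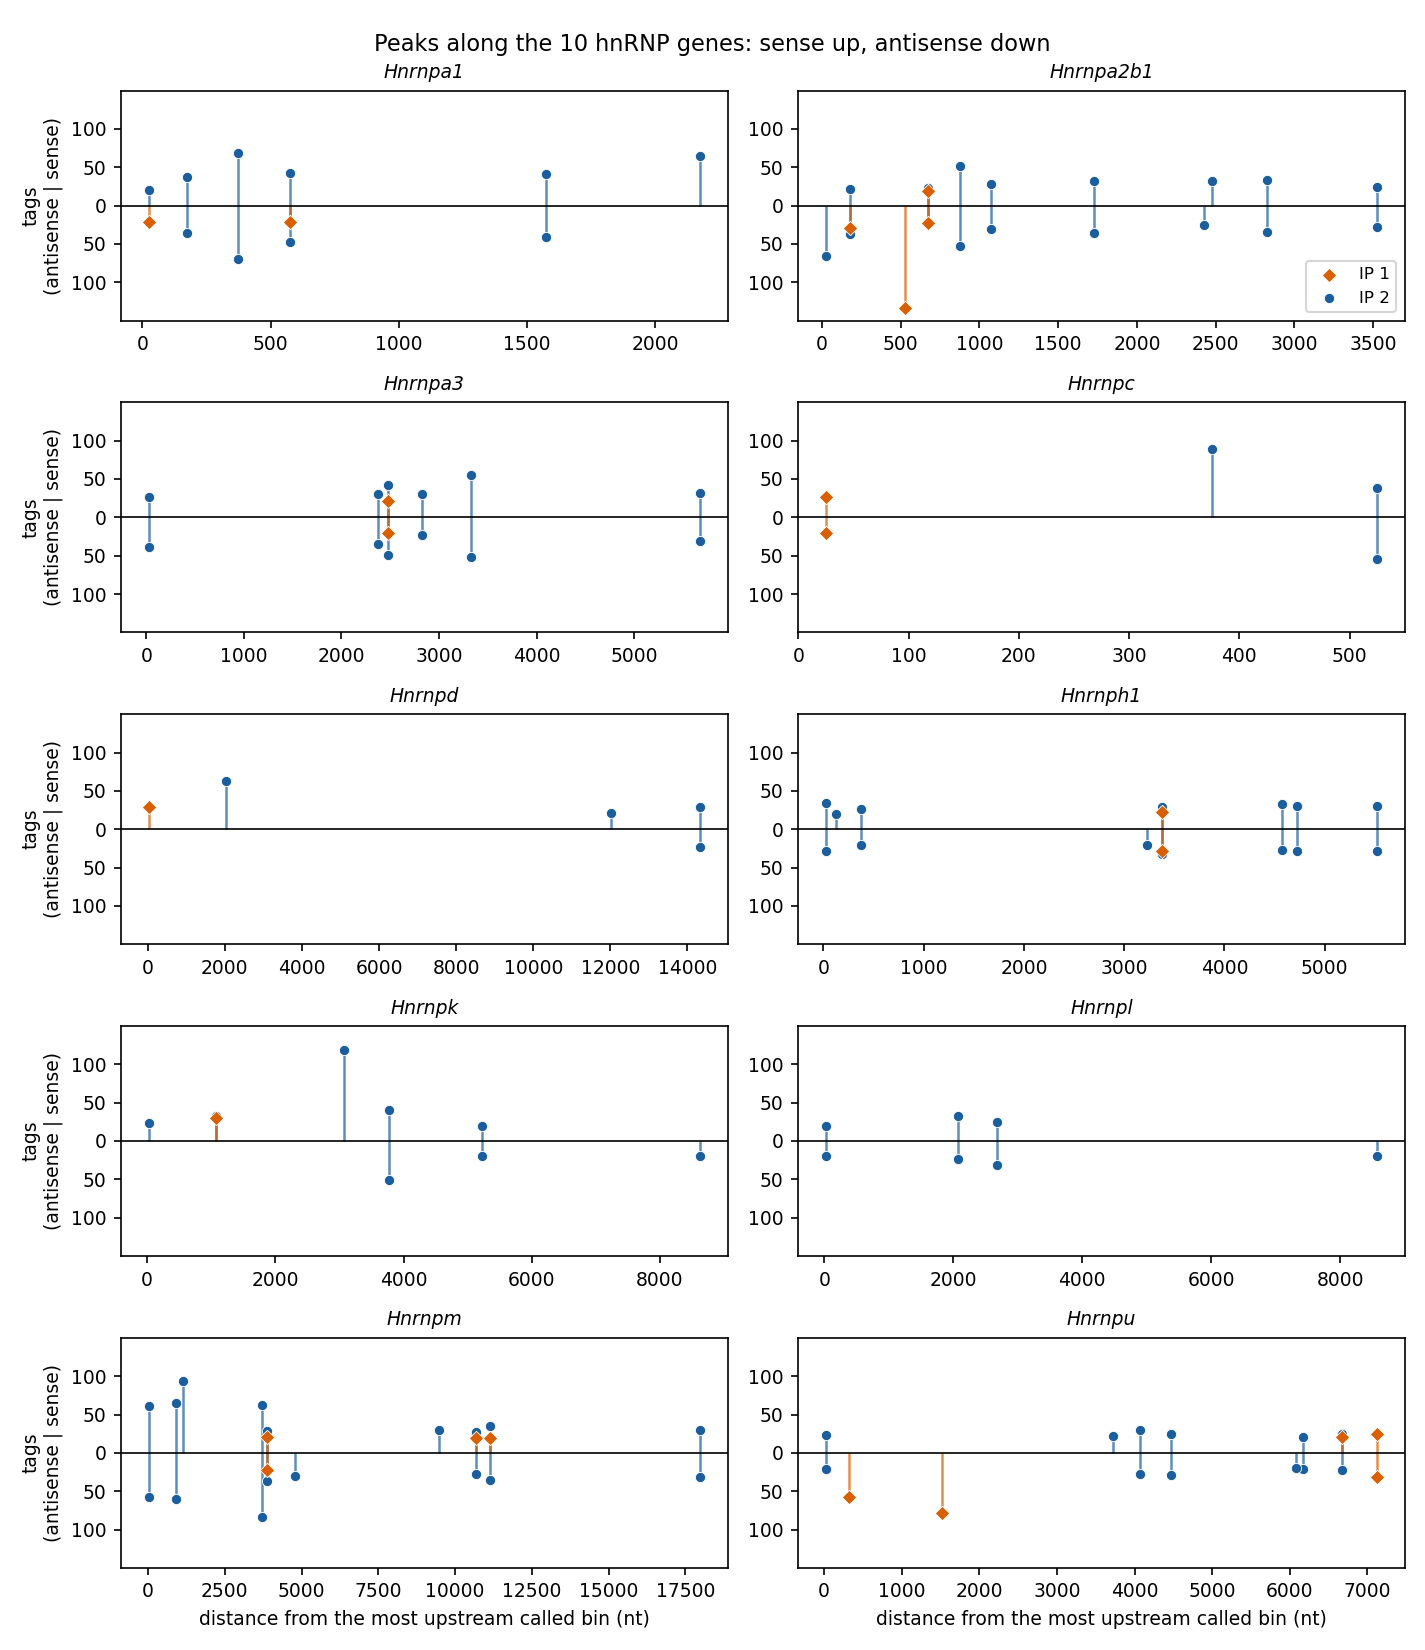
Peaks along each gene in the direction of transcription; the horizontal axis is the distance in nt from the most upstream bin called in either list, and the vertical axis is tags, with sense peaks above and antisense peaks below the line. Orange diamonds are IP 1 and blue circles IP 2; the 134-tag antisense peak of Hnrnpa2b1 and the 119-tag sense peak of Hnrnpk each stand in 1 list and on 1 strand only.

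Recurrence of the peaks was near that of the whole lists in IP 1. Of the 23 peaks of IP 1, 14 were shared (60.9%, 95% Wilson interval 40.8 to 77.8), beside 61.0% of all peaks of that list. The same 14 were 13.5% of the IP 2 peaks (8.19 to 21.3), beside 20.3%. Intervals cover counting error only. By strand, 8 of 11 sense and 6 of 12 antisense peaks of IP 1 were shared, beside 64.6% and 60.0% of all sense and antisense peaks of that list. When only peaks with a p-value at or below the median of their list were kept, 3 of 10 IP 1 peaks were shared, in 3 genes, beside 52.8% of the 1392 peaks that the whole list kept. In all, 75 bins of the 10 genes were called in either list on either strand, 18 in IP 1 and 68 in IP 2, and 11 were called in both.

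The tags of the shared peaks spanned a short range. In IP 1 they ranged from 19 to 30, with a median of 21. Shared peaks of other genes had a median of 24.5 there, and all peaks of that list 24. In IP 2 the tags ranged from 22 to 49, with a median of 32.5. The median there was 31 for shared peaks of other genes and 26 for all peaks of the list. IP 2 had more tags in 13 of 14 pairs, the exception being the antisense Hnrnpa2b1 peak at 80541900, and in 76.4% of the 1595 shared peaks of other genes. The median ratio of IP 1 to IP 2 was 0.762 in the 10 genes and 0.806 in other genes, with tags not scaled for depth. Hnrnpa3 and Hnrnpa1 had the lowest ratios, 0.408 for the antisense Hnrnpa3 peak and 0.447 for the antisense Hnrnpa1 peak. Spearman's rho between the lists was 0.047 over these 14 pairs and 0.432 over those of other genes. It is a description only, since the 14 come from 7 genes, some of them from the same bin, and span a short range of tags.

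**Figure D3:**
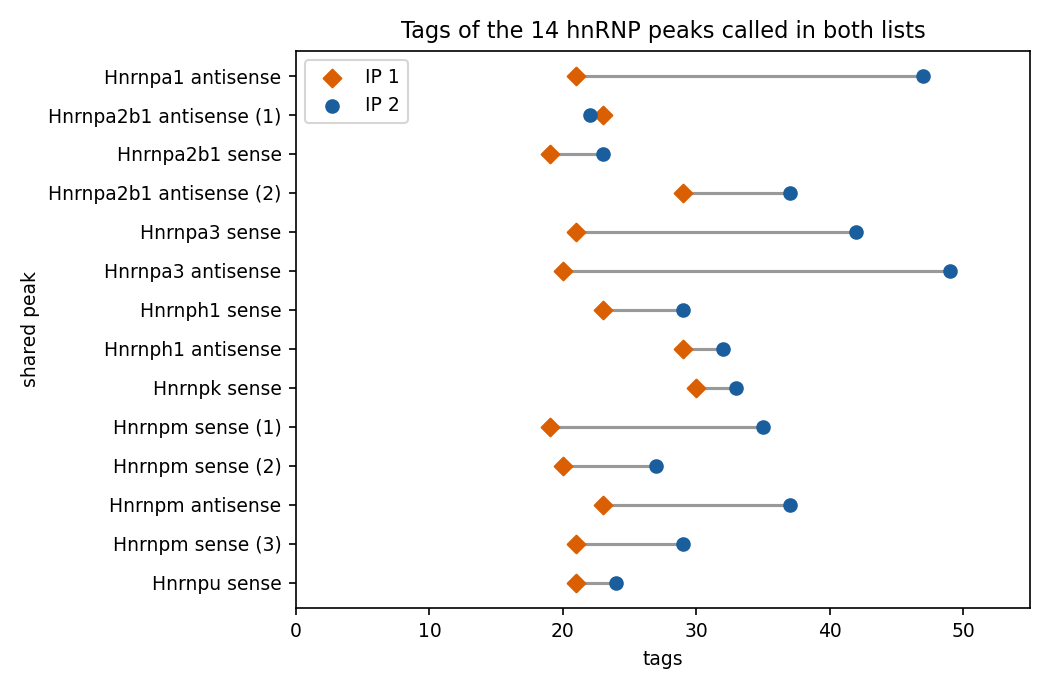
Tags (horizontal axis, from 0) of the 14 peaks of hnRNP genes called in both lists, 1 row each; orange diamonds are IP 1, blue circles IP 2, and a line joins the values of a peak. Numbers in brackets count peaks of the same gene and strand from the lowest coordinate. IP 2 is higher in 13 of 14 rows.

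The tallest peaks of the 10 genes stood in 1 list each. A minimum of 50 tags, chosen after the values were seen, was reached by 23 peaks in 8 genes. In IP 1 it was reached by 3 of 23 peaks (13.0%), beside 5.34% of all peaks and 4.48% of genic peaks of that list. In IP 2 it was reached by 20 of 104 (19.2%), beside 8.72% of all peaks and 8.16% of genic peaks. Hnrnph1 and Hnrnpl had no such peak. Of these, 0 of 3 in IP 1 and 0 of 20 in IP 2 were shared. In the whole lists, 45.8% of the IP 1 peaks and 30.1% of the IP 2 peaks at this level were shared. The highest shared peak, the antisense one of Hnrnpa3, had 49 tags in IP 2, just under this minimum, so the count depends in part on where the minimum lies. No test was made of this difference. The 3 of IP 1 were all antisense and called on 1 strand, where 61.1% of that list's peaks at this level had a bin called on both strands. Of the 20 in IP 2, 14 had a bin called on both strands, beside 82.9% of that list's peaks at this level. The 3 tallest of IP 2, in Hnrnpk, Hnrnpm and Hnrnpc, were sense peaks without an antisense partner, and each held coding sequence and intron.

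Sense and antisense peaks were about equally frequent, as in the lists. Antisense peaks were 12 of 23 in IP 1 (52.2%, beside 53.7% of genic peaks) and 49 of 104 in IP 2 (47.1%, beside 50.7%). Only Hnrnpa1 in IP 1 had antisense peaks with no sense peak. Among peaks of these genes, 12 of 23 in IP 1 had a bin called on both strands (52.2%, 33.0 to 70.8), beside 45.9% of genic peaks, and 87 of 104 in IP 2 did (83.7%, 75.4 to 89.5), beside 70.3%. One of the 87 is the shared 5' UTR peak of Hnrnpk, which faces the Rmi1 peak. Both peaks of a facing pair are counted here, so the peaks are not independent and these intervals are too narrow. Counted by bin, 6 of 18 (33.3%) in IP 1 and 47 of 68 (69.1%) in IP 2 were called on both strands. No count by bin is given for the whole lists. No test was made of the difference in IP 2.

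Tags of facing peaks were close. Over 37 facing pairs of 51-nt peaks in IP 2, the antisense peak held 43.5% to 62.7% of the tags of its pair, with a median of 50.7% beside 51.1% in other genes. It was higher in 20 pairs, lower in 13 and equal in 4. In IP 1 the 6 pairs ran from 43.5% to 56.4%. The largest antisense share was in Hnrnpa2b1 at 80542400, with 37 tags antisense and 22 sense. In Hnrnph1, 1 of 6 pairs of IP 2 had more antisense tags, and in Hnrnpa2b1 6 of 7 did. Spearman's rho between the strands in IP 2 was 0.791 in the 10 genes and 0.753 in other genes, and in IP 1 it was 0.090 over the 6 pairs of the 10 genes and 0.507 in other genes. A pair is counted only where both strands reach the lowest called tags, which draws weak pairs towards equal strands. Whether reads of sense RNA contribute to the antisense peaks was not tested.

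**Figure D4:**
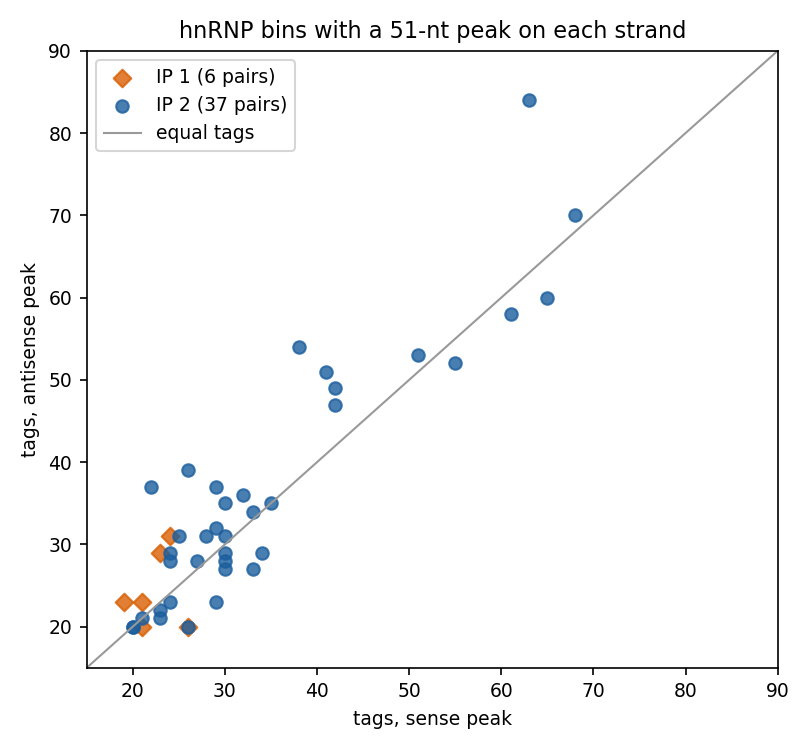
Tags of the antisense peak (vertical axis) against the sense peak (horizontal axis) for facing pairs of 51-nt peaks, 1 on each strand of the same bin, in hnRNP genes, both axes from 15 to 90 tags; orange diamonds are the 6 pairs of IP 1 and blue circles the 37 of IP 2. Points lie along the grey line of equal tags, and the Hnrnpm pair with 84 antisense and 63 sense tags is the highest.

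Most sense peaks ran over an exon-intron boundary. Exon and intron were both present in 8 of 11 sense peaks of IP 1 (72.7%, 43.4 to 90.3), beside 67.8% of the list, and in 41 of 55 of IP 2 (74.5%, 61.7 to 84.2), beside 71.2%. The exon part of the 41 ranged from 0.02 to 0.97 of the peak, with a median of 0.6. Hnrnpm had 7 such peaks in IP 2, Hnrnpa2b1 and Hnrnph1 6 each, and Hnrnpa1 5. No sense peak of the 10 genes lay wholly in an intron, 0 of 11 in IP 1 and 0 of 55 in IP 2 (Wilson upper limit 6.53%), beside 5.14% of sense peaks of other genes in IP 2. Coding sequence was touched by 51 of the 55 (92.7%, beside 86.6% of all sense peaks of IP 2), the 5' UTR by 4 (7.27%, beside 7.25%) and the 3' UTR by 2, in Hnrnpa1 and Hnrnpa2b1 (3.64%, beside 2.03%).

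Several of these genes have pseudogenes named after them. The name table lists 50 pseudogenes named after Hnrnpa1, 7 after Hnrnpk, 6 after Hnrnpc, 3 after Hnrnph1 and 2 each after Hnrnpd, Hnrnpl and Hnrnpm. No peak of either list carried one of these names. The names are those of assembly GRCr8, and whether the annotation of the lists holds them was not checked. Pseudogenes under other names were not searched. How reads that match several places were assigned is not given in the sources used here, so the tags of exon bins of these genes are uncertain.

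Peaks also stood in other genes of the hnRNP family. Of 18 such genes, 6 had a peak in IP 1, 8 in IP 2 and 11 in either, beside 3.68%, 7.25% and 7.61% of protein-coding genes. Of the 11, 3 had peaks in both lists, beside 43.2% of all genes with a peak in either list. Shared peaks were found in 2, Hnrnpdl and Hnrnpul1, beside 34.1% of all genes with a peak. Hnrnpdl alone had a shared sense peak, beside 23.9% of all genes with a peak. The strongest peak of Hnrnpdl, a relative of Hnrnpd, was sense in IP 1 (23 tags) and antisense in IP 2 (40 tags). Hnrnpul1 had 1 antisense peak in each list, of 24 and 36 tags, and no sense peak. Hnrnpul2, a relative of Hnrnpu, had 2 peaks in IP 1 (up to 29 tags, antisense) and 10 in IP 2 (up to 39, antisense). None of them was shared. Peaks stood in IP 2 alone for Pcbp2 (up to 41 tags, antisense), Raly (35, sense) and Hnrnpab (25, sense). The same held for Hnrnpf (24, antisense) and the polypyrimidine-tract-binding protein gene Ptbp1 (20, antisense), which had no sense peak. Genes with peaks in IP 1 alone were Hnrnpll (up to 33 tags, antisense), Cirbp (23, antisense) and Syncrip (19, sense). Hnrnpa0, Hnrnph2, Hnrnph3, Hnrnpr, Pcbp1, Rbmx and Tardbp had no peak in either list.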

How the data were processed

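Cells were cross-linked, lysed and treated with DNase and then micrococcal nuclease, and strand-specific paired-end libraries were made from total RNA, per the labels' protocols. The submitters' processing notes name HISAT2 and build mRatBN7.2. For peak calling, filters and the part played by the inputs, the method is not given in the sources used here. Tags, the authors' values, are a signal per bin, not scaled for depth as far as the file headers show, and the deposited p-value of a peak was used only to rank peaks within a list.

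Members were found by the gene name in each list. The members and gene lists were chosen with earlier results of these data known. Peaks were shared when at least 1 bin of 50 nt on the same strand was in both. Gene strand was taken from sense peaks. All 10 members were named, with every peak of lists of up to 6 peaks and otherwise the strongest sense and antisense peak and all shared ones; the other family genes were named by their strongest peak, and further peaks were chosen after their values were seen. The name table is RefSeq's for assembly GRCr8. It was used only for names, pseudogene names, the protein-coding class and the listing of overlapping genes. All 18 other family genes and all markers matched it. A gene of the family list is not reported here and is left out of its counts. Peak sequences were not used here. No test was made: with 2 IP lists and no control list, values stand beside those of the whole lists, with 95% Wilson intervals for shares. The overlap routine was tested on simulated peaks. Software was matplotlib 3.10.9, pandas 2.3.3, numpy 2.4.6 and scipy 1.17.1 under Python 3.11.15.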

Additional observations from a re-analysis of the deposited data

How the results depend on the processing

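Of the 10 genes, 10 had a peak, and 9 to 10 did when 1 replicate was left out. With only peaks whose p-value is at or below the median of their list, 6 genes rather than 9 had peaks in both lists. The genes with a shared peak then numbered 3 in place of 7, and 30% of replicate 1 peaks were shared in place of 60.9%. Counted by bin, not by peak as above, 10% (1 of 10) in replicate 1 were called on both strands, in place of 33.3% (6 of 18). Fewer peaks enter at that threshold, 10 in replicate 1. Measured from replicate 2, the share of shared peaks was 13.5%. Other overlap rules left 7 genes with a shared peak, and overlap on either strand gave 65.2% shared. With sense peaks alone, 6 genes had a shared peak. Leaving out peaks of at least 50 tags, an alternative chosen after seeing the data, gave 70% shared and 7 genes. None of the peaks left out was shared, so this outcome was fixed in advance and is no check. No name field joined several genes. No paired analysis was possible because both peak lists analysed here are of IPs and the results come from no test. Unknown depth limits every statement on a missing peak.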
